A study of Mus musculus with 12 samples.

Results

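Insulin-like growth factor (IGF) signalling was described in mouse malignant peripheral nerve sheath tumours through 10 genes of the pathway: the ligand Igf1, the receptors Igf1r and Igf2r, the adaptors Irs1 and Irs2, and the binding protein genes Igfbp2, Igfbp3, Igfbp4, Igfbp5 and Igfbp7. They were picked by name from the 54532 genes counted, and all 10 passed the filter on low counts that left 15650 genes for testing. The levels of these genes in the same 12 tumours were already known when the list was drawn up. Their differences between groups are therefore given as a description, and nothing is supported with them. The tumours, sarcomas of the nerve sheath, were raised in C57B/6 mice labelled WT in all 3 groups with adenovirus-borne Cas9 against Nf1 and a second target spelled Cdk2na in the labels. Terminal combination tumours (n = 4) received, by daily oral gavage of the host, palbociclib (a CDK4/6 inhibitor, 100 mg/kg) with mirdametinib (a MEK inhibitor, 1 mg/kg) and were taken at the terminal time point. Regressing tumours (n = 4) came from mice on the same drugs and were taken during regression. Vehicle tumours (n = 4) came from mice given vehicle and were taken at the terminal time point. The series speaks of tumours sensitive and resistant to the combination, but no label says which tumours those are. The labels give no ages and do not say that each tumour came from its own mouse. The spread between samples may therefore not be the spread between mice.

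IGF1 binds the receptor tyrosine kinase IGF1R, which recruits the insulin receptor substrates IRS1 and IRS2 and through them drives PI3K-AKT and RAS-ERK signalling. IGF2R binds IGF2 without signalling through a kinase and carries it to lysosomes. The IGF binding proteins hold the ligands outside the cell, and proteases that cut them free the ligand. In skeletal muscle and in sarcomas of muscle type, IGFs are known as growth and differentiation factors.

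Library totals ran from 13194699 to 22639625 counts, and CPM are depth-adjusted counts, here scaled to TMM-adjusted library sizes. On that scale a count of 0, taken to allow up to 3 counts, allowed 0.128 to 0.231 CPM, for counting error only. Marker levels of other tissues differed between libraries. The 14 skeletal muscle markers summed to 3266 to 40869 CPM in terminal combination tumours, 4854 to 64839 CPM in the regressing group and 690 to 11335 CPM with vehicle. For 10 adipocyte markers the sums were 97.2 to 592 CPM in terminal combination tumours, 274 to 2310 CPM in the regressing group and 23.9 to 153 CPM with vehicle. Macrophage markers summed to 1886 to 3182 CPM in terminal combination tumours, 1980 to 4266 CPM in the regressing group and 1269 to 4448 CPM with vehicle. Endothelial markers had 306 to 673 CPM in terminal combination tumours, 655 to 797 CPM in the regressing group and 320 to 816 CPM with vehicle. Fibroblast and matrix markers had 14982 to 39474 CPM in terminal combination tumours, 23892 to 33632 CPM in the regressing group and 20127 to 29292 CPM with vehicle. Pericyte and smooth muscle markers had 471 to 2584 CPM in terminal combination tumours, 510 to 1978 CPM in the regressing group and 293 to 1479 CPM with vehicle. Proliferation genes summed to 191 to 875 CPM in terminal combination tumours, 313 to 869 CPM in the regressing group and 739 to 1191 CPM with vehicle. Keratinocyte markers were low, at 2.61 to 9.28 CPM in terminal combination tumours, 2.55 to 40.4 CPM in the regressing group and 3.96 to 30.5 CPM with vehicle. Schwann lineage markers summed to 148 to 162 CPM in terminal combination tumours and 93.7 to 121 CPM in the regressing group. With vehicle they summed to 119 to 384 CPM, and Ncam1, Gap43 and Egr2 were the most abundant. The defining factor Sox10 stood at 0 to 2.1 CPM over all tumours and Foxd3 at 0 to 0.29 CPM. In bulk tissue, fewer cells of a type and less RNA per cell cannot be told apart.

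Sequences before a RefSeq start of 4 of these genes are shown because the results describe these genes most closely: Igf1r, the member whose treated groups did not overlap, Igfbp2 and Igfbp5, neighbours on chromosome 1 with their highest levels in the same 3 tumours, and Igfbp4, the most abundant per length. Each run is the 250 bases before a RefSeq start in GRCm38.p6, written 5′ to 3′ on the gene's strand, with the motifs found in capitals. The RefSeq start of Igf1r lies upstream of the gene start given below from GENCODE. The Igf1r run lies at chr7:67952007-67952256 on the plus strand, the Igfbp2 run at chr1:72824230-72824479 on the plus strand, the Igfbp5 run at chr1:72874866-72875115 on the minus strand and the Igfbp4 run at chr11:99040994-99041243 on the plus strand.
Igf1r: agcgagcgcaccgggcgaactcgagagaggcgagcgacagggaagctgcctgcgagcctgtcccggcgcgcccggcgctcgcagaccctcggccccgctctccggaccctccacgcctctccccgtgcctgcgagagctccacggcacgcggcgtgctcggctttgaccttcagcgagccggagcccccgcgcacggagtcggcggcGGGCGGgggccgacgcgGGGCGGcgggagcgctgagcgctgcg
Igfbp2: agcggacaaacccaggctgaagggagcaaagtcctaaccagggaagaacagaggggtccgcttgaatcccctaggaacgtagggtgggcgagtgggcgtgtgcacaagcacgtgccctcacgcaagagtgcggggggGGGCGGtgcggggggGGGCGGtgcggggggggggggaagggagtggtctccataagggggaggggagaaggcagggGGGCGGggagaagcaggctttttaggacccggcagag
Igfbp5: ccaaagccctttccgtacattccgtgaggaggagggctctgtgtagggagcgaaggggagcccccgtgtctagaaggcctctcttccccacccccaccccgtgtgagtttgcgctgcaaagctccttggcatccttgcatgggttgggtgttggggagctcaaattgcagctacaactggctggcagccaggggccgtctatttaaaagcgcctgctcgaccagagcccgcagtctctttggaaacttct
Igfbp4: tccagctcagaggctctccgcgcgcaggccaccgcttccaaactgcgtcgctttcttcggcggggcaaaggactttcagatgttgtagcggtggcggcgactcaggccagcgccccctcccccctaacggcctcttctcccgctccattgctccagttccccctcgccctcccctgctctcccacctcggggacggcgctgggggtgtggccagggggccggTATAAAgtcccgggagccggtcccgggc
Both strands were searched for an E-box bound by myogenic factors, spelled CAGCTG. The TATA box was searched as TATAAA and the GC box as GGGCGG. For FOXO factors the letters were GTAAACA, and for AP-1 they were TGACTCA. None of these motifs is contained in another. The Igf1r window held 2 GC boxes and the Igfbp2 window held 3, and GC boxes stood in 32.7% of 32851 RefSeq windows of this length. The Igfbp4 window held a TATA box whose first base was 28 before the start, as did 12.4% of windows somewhere in their length. None of the letters was in the Igfbp5 window. Igfbp2 has another RefSeq start downstream, whose window held an AP-1 motif, found in 4.46% of windows. The E-box was in the Igf1 window and in 13% of all windows, and the FOXO motif in 3.17% of all windows and in no member's window.

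The ligand Igf1 (ENSMUSG00000020053, chromosome 10, 87858265 to 87937042, GRCm38) reached 86.9, 61.3, 43.8 and 133 CPM in terminal combination replicates 1 to 4, while regressing replicates 1 to 4 had 114, 62.8, 56.6 and 89.2 CPM and vehicle replicates 1 to 4 had 48.5, 305, 49.9 and 37.3 CPM. Vehicle replicate 2 was the highest of the 12, and the other vehicle tumours lay among the lowest. All 3 groups overlapped. Group means were 81.2 ± 38.6 CPM in terminal combination, 80.7 ± 26.4 CPM in regressing tumours and 110 ± 130 CPM in vehicle tumours (SD, n = 4 each). The direction against vehicle rested on that 1 vehicle tumour. In log2 terms it was -0.44 (SE 0.63) for terminal combination minus vehicle and -0.45 (SE 0.63) for regressing minus vehicle. Without vehicle replicate 2 these were 0.84 and 0.83. The same tumour held the most Igfbp4, at 5037 CPM, and the most Pappa, at 33.8 CPM, where the other 11 held 0.583 to 15.4 CPM. Pappa encodes pappalysin-1, a protease that cuts IGFBP4. Pappa2, its relative, stood at 13.6 CPM there and at 0.0508 to 3.31 CPM elsewhere. Pappa and Pappa2 were on the list of other pathway genes but are singled out here after their values were seen.

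**Figure D1:**
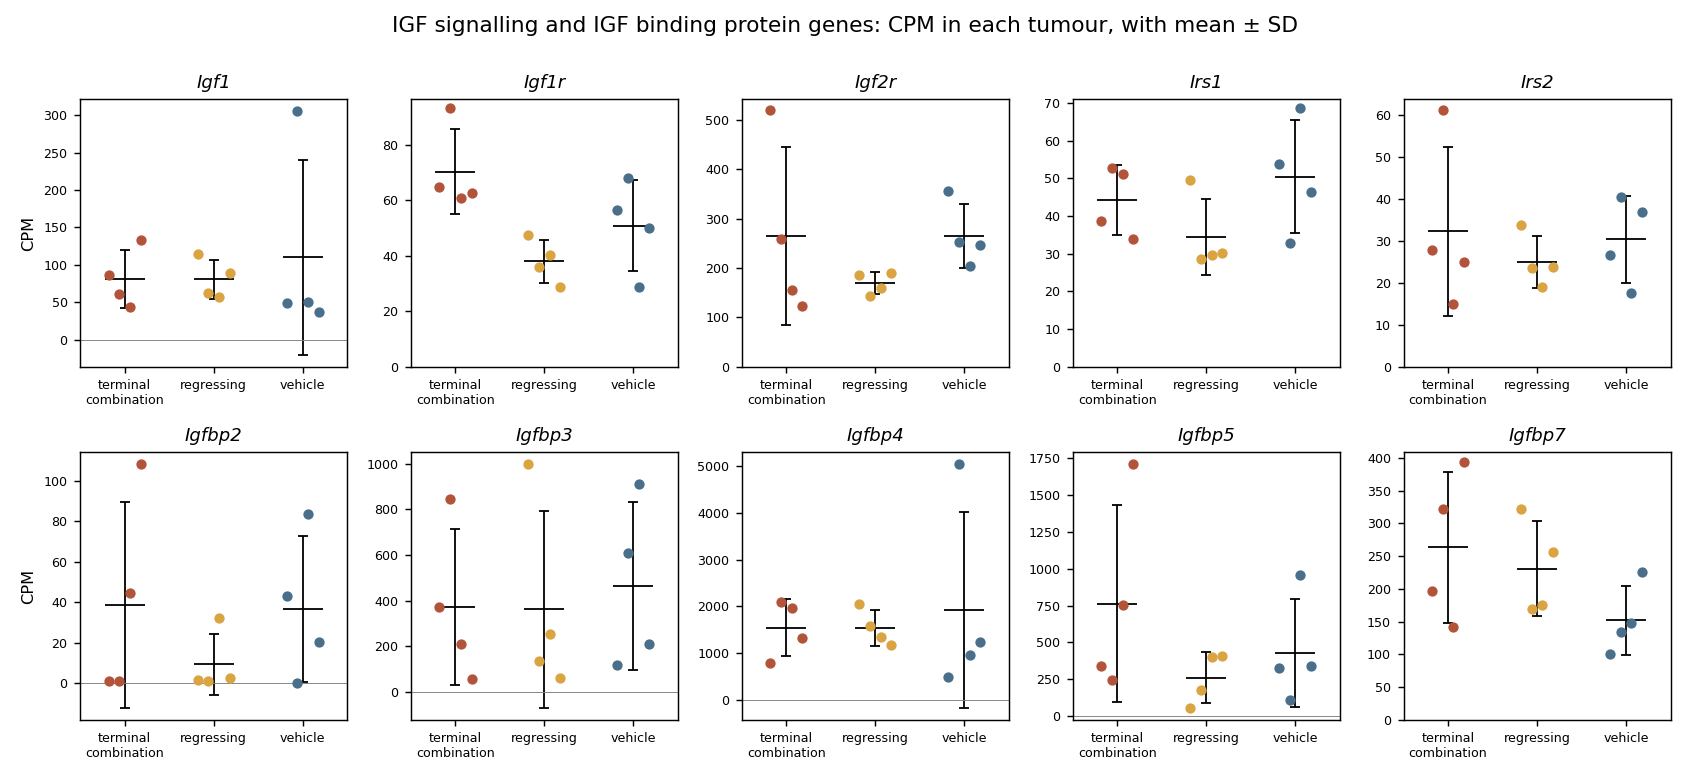
CPM (y axis, linear) of each of the 10 genes in every tumour, with points for tumours and bars for mean ± SD (n = 4 per group). Igf1r lies between 60.7 and 93.1 CPM in terminal combination tumours, above the 28.8 to 47.3 CPM of regressing tumours, while vehicle replicate 2 stands alone for Igf1 and Igfbp4.

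The receptor kinase gene Igf1r (ENSMUSG00000005533, chromosome 7, 67952827 to 68233668) was the member whose treated groups did not overlap. It reached 64.8, 93.1, 60.7 and 62.5 CPM in terminal combination replicates 1 to 4, while regressing replicates 1 to 4 had 47.3, 35.8, 40.2 and 28.8 CPM and vehicle replicates 1 to 4 had 56.3, 68, 28.8 and 50 CPM. Every terminal combination tumour was above every regressing tumour, and vehicle tumours ran from the lowest regressing value into the terminal combination range, which 1 of them, replicate 2, reached. Terminal combination exceeded regressing tumours by 0.88 on the log2 scale (SE 0.26), with 70.3 ± 15.3 against 38.1 ± 7.78 CPM (SD, n = 4 each). Against vehicle tumours (50.8 ± 16.5 CPM) the log2 differences were 0.47 (SE 0.26) for terminal combination and -0.42 (SE 0.26) for regressing. In all 21 alternatives the difference between the treated groups stayed above 0, from 0.72 without terminal combination replicate 2 to 1.04 without the 4 libraries whose titles end in FFT, an ending the labels do not explain. Igf1r was 1 of 10 members whose treated groups did not overlap with terminal combination higher, against 2.4% of all genes tested.

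Igf2r (ENSMUSG00000023830, chromosome 17, 12682406 to 12769664), the clearance receptor for IGF2, was the member with separate ranges in regressing and vehicle tumours. Its level reached 520, 258, 155 and 124 CPM in terminal combination replicates 1 to 4, while regressing replicates 1 to 4 had 186, 143, 160 and 190 CPM and vehicle replicates 1 to 4 had 357, 253, 204 and 247 CPM. All regressing tumours were below all vehicle tumours, and terminal combination tumours ran from below the lowest regressing tumour to above the highest vehicle tumour. Regressing minus vehicle was -0.65 on the log2 scale (SE 0.38), between -0.81 and -0.44 over the alternatives. Terminal combination minus regressing was 0.64 (SE 0.38), and 0.08 without terminal combination replicate 1. Of all genes tested, 4.14% lay wholly lower in regressing than in vehicle tumours, and Igf2r was 1 of 10 members to do so. Airn, the antisense RNA of this locus, drew 858 counts over the 12 libraries against 51476 for Igf2r.

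Among the adaptors, Irs1 (ENSMUSG00000055980, chromosome 1, 82233101 to 82291416) varied least of the 10 genes, 2.41-fold between the highest and lowest tumour. It reached 38.7, 52.8, 51.2 and 34 CPM in terminal combination replicates 1 to 4, while regressing replicates 1 to 4 had 49.7, 28.5, 29.6 and 30.3 CPM and vehicle replicates 1 to 4 had 53.7, 32.8, 68.8 and 46.3 CPM. Regressing replicates 2, 3 and 4 were below every terminal combination and vehicle tumour, while regressing replicate 1 was among the higher values. The log2 difference was -0.55 (SE 0.26) for regressing minus vehicle and 0.36 (SE 0.26) for terminal combination minus regressing. For Irs2 (ENSMUSG00000038894, chromosome 8, 10984681 to 11008458), an adaptor that FOXO factors are known to induce, the 4 values were 27.9, 61.2, 15 and 24.9 CPM in terminal combination, 33.7, 23.6, 18.9 and 23.7 CPM in regressing and 26.7, 40.4, 17.5 and 36.9 CPM in vehicle tumours. Irs2 groups overlapped fully, and terminal combination replicate 2 was the highest. Without that library the Irs2 difference between terminal combination and regressing tumours was -0.14, against 0.37 (SE 0.40) with it. In mouse annotation, Irs1 and Irs2 each share exon sequence with a gene on the opposite strand, which drew 0 and 5 counts.

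Compared per kilobase of exon, a scale on which genes can be set against each other, the order over the 12 tumours was Igfbp4 (mean 378 CPM per kb), Igfbp7 (178), Igfbp3 (128), Igfbp5 (80.7), Igf2r (25), Igfbp2 (15.3), Igf1 (9.15), Irs1 (4.71), Irs2 (4.62) and Igf1r (3.16). Neighbours in this order overlapped widely, since Igfbp4 ranged from 109 to 1141, Igfbp3 from 17.9 to 318 and Igfbp5 from 9.48 to 285 CPM per kb. Irs1 (3.12 to 7.52) and Irs2 (2.37 to 9.67) could not be ordered by these values. Group means gave other orders in places. Igfbp5 (127) stood above Igfbp3 (119) in terminal combination tumours, and Igfbp3 (148) above Igfbp7 (125) in vehicle tumours. Irs2 stood above Irs1 in terminal combination (5.1 and 4.83) and regressing tumours (3.95 and 3.78). These lengths are the union of all annotated exons, so a gene with long but little used isoforms may be understated.

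Igfbp4 (ENSMUSG00000017493, chromosome 11, 99041244 to 99054392) encodes a binding protein that pappalysin-1 cuts. It reached 788, 2094, 1969 and 1323 CPM in terminal combination replicates 1 to 4, while regressing replicates 1 to 4 had 2045, 1583, 1356 and 1172 CPM and vehicle replicates 1 to 4 had 481, 5037, 967 and 1240 CPM. Vehicle tumours held both the lowest and the highest value. The log2 differences against vehicle were -0.32 (SE 0.60) for terminal combination and -0.33 (SE 0.60) for regressing, and both were 0.78 without vehicle replicate 2. Between the treated groups the difference was 0.00 (SE 0.60).

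Igfbp3 (ENSMUSG00000020427, chromosome 11, 7206086 to 7213923), the main carrier of IGFs in blood, was among the most uneven. It reached 374, 846, 210 and 55.9 CPM in terminal combination replicates 1 to 4, while regressing replicates 1 to 4 had 997, 136, 256 and 61.8 CPM and vehicle replicates 1 to 4 had 120, 609, 913 and 212 CPM. Each group held high and low tumours, and the highest tumour was 17.8-fold above the lowest. The log2 differences were 0.03 (SE 0.95) for terminal combination minus regressing, -0.32 (SE 0.95) for terminal combination minus vehicle and -0.35 (SE 0.95) for regressing minus vehicle. Of these, the difference between regressing and vehicle tumours ran from -1.90 to 2.28 over the alternatives.

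Igfbp2 (ENSMUSG00000039323, chromosome 1, 72824503 to 72852474) was high in some tumours of every group and nearly silent in the others. Its level reached 1.02, 1.07, 44.6 and 108 CPM in terminal combination replicates 1 to 4, while regressing replicates 1 to 4 had 1.72, 1.22, 32.1 and 2.85 CPM and vehicle replicates 1 to 4 had 42.9, 0, 83.6 and 20.3 CPM. No tumour lay between 2.85 and 20.3 CPM. In vehicle replicate 2 no read was counted, which allows up to 0.214 CPM. Tumours at 20.3 CPM or more numbered 2 of 4 in terminal combination, 1 of 4 in regressing and 3 of 4 in vehicle. The log2 differences were 2.02 (SE 1.68) for terminal combination minus regressing and -1.94 (SE 1.67) for regressing minus vehicle. They were 4.33 and -4.26 without regressing replicate 3, the 1 regressing tumour above 2.85 CPM.

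Igfbp5 (ENSMUSG00000026185, chromosome 1, 72857932 to 72874884), a binding protein gene known in muscle and bone, lies tail to tail with Igfbp2, 5457 bases away. It reached 341, 245, 752 and 1710 CPM in terminal combination replicates 1 to 4, while regressing replicates 1 to 4 had 57, 179, 402 and 408 CPM and vehicle replicates 1 to 4 had 323, 106, 956 and 337 CPM. The 3 highest values, in terminal combination replicates 3 and 4 and vehicle replicate 3, were in the 3 tumours with the most Igfbp2. Vehicle replicate 2 was low for both genes. Over the 12 tumours the 2 genes had r = 0.78 (Spearman rho 0.76), but Igfbp5 did not share the split of Igfbp2. Regressing replicate 4 held 408 CPM of Igfbp5 beside 2.85 CPM of Igfbp2, and regressing replicate 3 held 402 beside 32.1 CPM. Terminal combination replicate 1 held 341 beside 1.02 CPM, and vehicle replicate 1 held 323 beside 42.9 CPM. The log2 difference of Igfbp5 was 1.54 (SE 0.80) for terminal combination minus regressing, and 0.77 without terminal combination replicate 4. It was -0.72 (SE 0.78) for regressing minus vehicle, and 0.05 without vehicle replicate 3. Terminal combination minus vehicle was 0.82 (SE 0.78), and 0.05 without terminal combination replicate 4.

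The genes whose log2 CPM followed Igfbp2 most closely over the 12 tumours included genes of muscle formation. By Pearson correlation the first was Mymk, which encodes the fusion protein myomaker (r = 0.95, Spearman rho 0.92), then the muscle integrin gene Itga7 (r = 0.95, rho 0.93) and Frmpd1 (r = 0.94, rho 0.88). These values come from tumours at high and low levels with none in between, and are given as a description. Mymk reached 0.102, 0.535, 59.3 and 34.2 CPM in terminal combination replicates 1 to 4, while regressing replicates 1 to 4 had 1.15, 0.754, 21.8 and 3.16 CPM and vehicle replicates 1 to 4 had 167, 0, 45.4 and 27 CPM. The 6 tumours with 20.3 CPM or more of Igfbp2 were the 6 with 21.8 CPM or more of Mymk.

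A list of 10 genes of muscle formation was then drawn up, after these values had been seen, from the myogenic factors Myod1, Myog and Myf5, the fusion genes Mymk and Mymx, the embryonic and perinatal myosins Myh3 and Myh8, the fetal acetylcholine receptor subunit Chrng, and Cdh15 and Itga7. Its summed CPM was 21.2, 117, 1043 and 757 in terminal combination replicates 1 to 4, 103, 32.2, 308 and 130 in regressing replicates 1 to 4, and 2388, 9.49, 1075 and 791 in vehicle replicates 1 to 4. The 6 tumours high in Igfbp2 held 308 to 2388 CPM of these genes and the other 6 held 9.49 to 130 CPM. The list holds Mymk and Itga7, which were found above by their likeness to Igfbp2, so this split was in part built in. Not every gene of the list split in this way. Chrng stood at 16.5 CPM in regressing replicate 4, above 8.29 CPM in regressing replicate 3 and 10.4 CPM in terminal combination replicate 4. Markers of mature muscle were ordered otherwise. Their highest sums were in regressing replicate 1 (64839 CPM), terminal combination replicate 2 (40869) and regressing replicate 4 (38776), which held 1.72, 1.07 and 2.85 CPM of Igfbp2. Vehicle replicate 3 held 83.6 CPM of Igfbp2 beside 3287 CPM of mature muscle markers. The part of muscle-forming cells in the Igfbp2 and Igfbp5 differences was not tested.

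**Figure D2:**
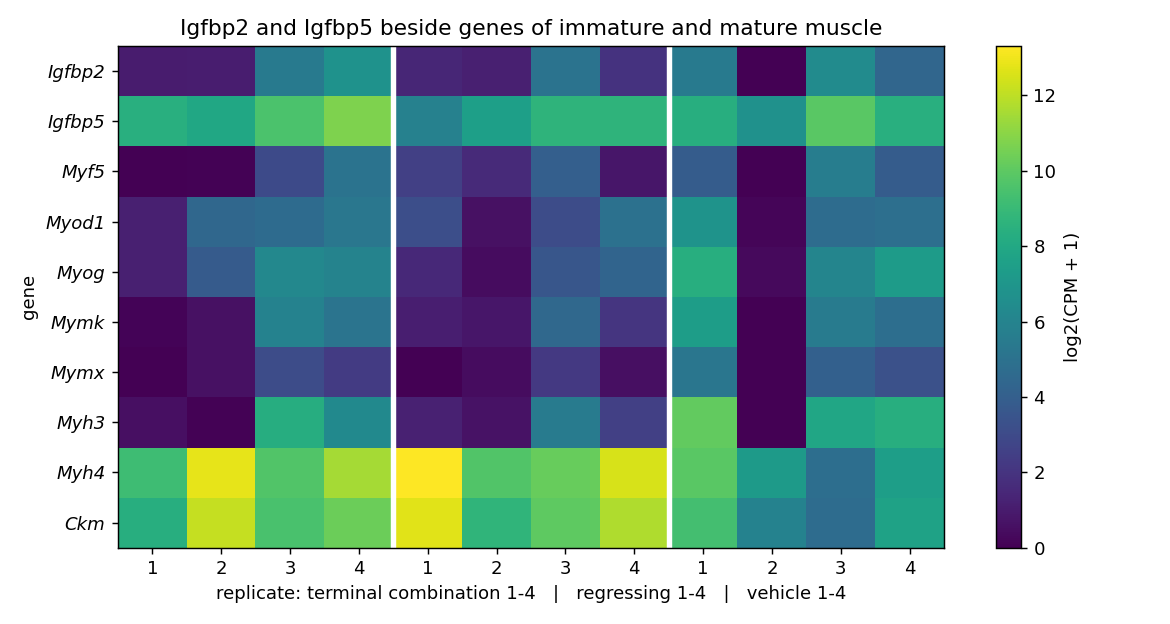
Heat map of log2(CPM + 1) for Igfbp2, Igfbp5, some genes of muscle formation (Myf5 to Myh3) and genes of mature muscle (Myh4, Ckm). Each column is 1 tumour. Myh8, Chrng, Cdh15 and Itga7 of the muscle-formation list are not drawn. The columns bright for Igfbp2 (terminal combination 3 and 4, regressing 3, vehicle 1, 3 and 4) are those bright for Mymk and Myh3, and differ from those brightest for Myh4.

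Igfbp7 (ENSMUSG00000036256, chromosome 5, 77349240 to 77408041), a low-affinity relative made by vessel cells, was the 1 member with fitted differences above 0 against vehicle in both treated groups. It reached 196, 322, 142 and 394 CPM in terminal combination replicates 1 to 4, while regressing replicates 1 to 4 had 322, 169, 176 and 257 CPM and vehicle replicates 1 to 4 had 100, 134, 148 and 225 CPM. The groups overlapped, with vehicle replicate 4 above the lower tumours of both treated groups. The log2 difference was 0.80 (SE 0.35) for terminal combination minus vehicle and 0.61 (SE 0.35) for regressing minus vehicle. Both comparisons share the vehicle tumours. With the muscle marker score of each library as a covariate these were 0.37 and 0.06, and with the adipocyte score 0.37 and -0.03. The adipocyte score, the mean log2 CPM of its markers, was 3.61 to 5.81 in regressing against -1.34 to 2.35 in vehicle tumours, without overlap, so its part and that of group cannot be told apart there. Endothelial markers, whose sums are given above, overlapped between the treated groups and vehicle. Igfbp7 and Polr2b overlap in exons on opposite strands, with 45312 and 19273 counts in all, and the strand setting of the counting is not given in the sources used here.

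**Figure D3:**
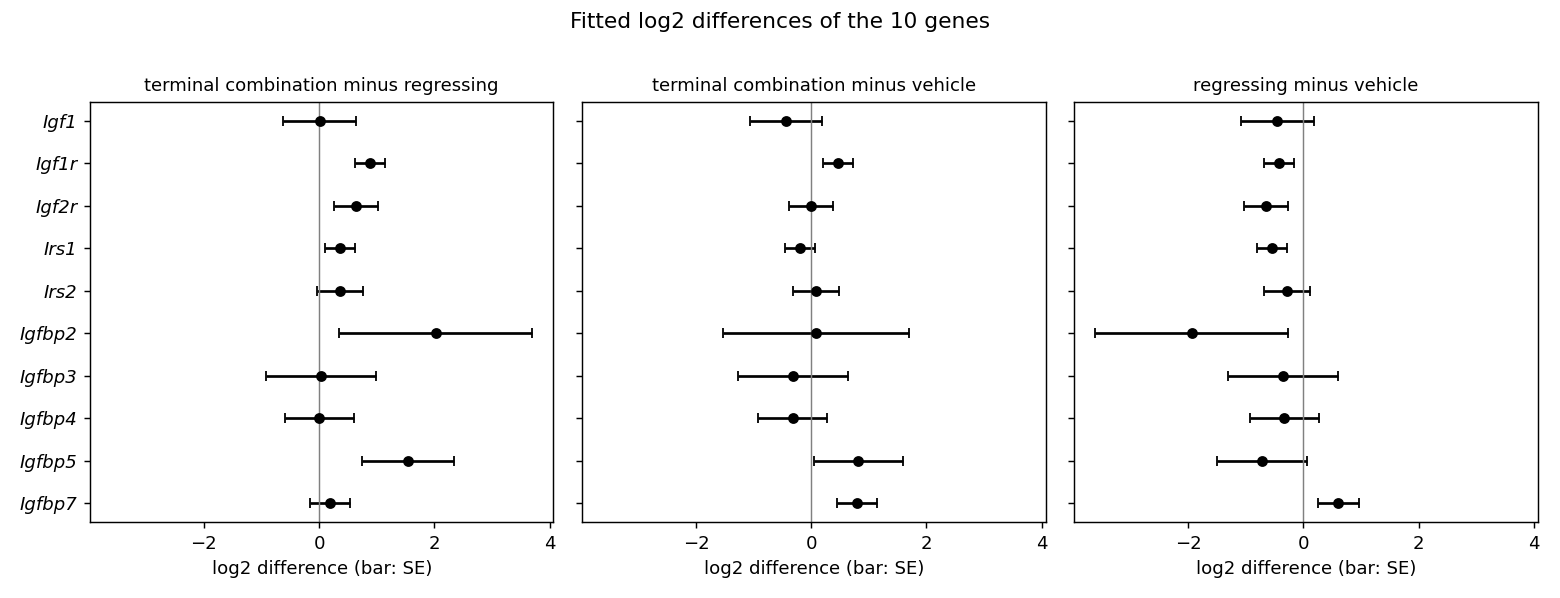
Fitted log2 differences (x axis) with SE bars for the 10 genes in the 3 comparisons. All 10 points lie at or above 0 for terminal combination minus regressing, and 9 of 10 lie below 0 for regressing minus vehicle.

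Across the members, none passed an adjusted p of 0.05 in edgeR in any comparison, where the share of all genes called was 0% each time. At an unadjusted p under 0.05, 1 of 10 was counted for terminal combination minus regressing (Igf1r, beside 7.02% of all genes), 1 of 10 for terminal combination minus vehicle (Igfbp7, beside 5.94%) and 0 of 10 for regressing minus vehicle (beside 12.7%). DESeq2 called 0 of 10 members in each comparison, beside 0.326%, 0.0895% and 3.09% of all genes in that order. All 10 fitted differences were above 0 for terminal combination minus regressing, with a median of 0.36 beside 0.01 over all genes, of which 50.8% were above 0. For regressing minus vehicle 9 of 10 were below 0, with a median of -0.43 beside -0.02 over all genes. Of all genes, 48.5% were above 0 there. Terminal combination minus vehicle had 5 above and 5 below 0, with a median of 0.03 beside 0.00 and 50.3% of all genes above 0. Groups did not overlap for 1 of 10 members between the treated groups (3.9% of all genes), 0 of 10 between terminal combination and vehicle tumours (2.5%) and 1 of 10 between regressing and vehicle tumours (7.64%). Each pair of comparisons shares 1 group of tumours, so they are not independent of each other. Several of the 10 differences between the treated groups were near 0, with 0.01 for Igf1, 0.03 for Igfbp3 and 0.00 for Igfbp4. Their sign turned in 9 of 21 alternatives for Igf1, 5 for Igfbp3 and 10 for Igfbp4.

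The make-up of the binding protein transcripts varied between tumours of the same group. Igfbp6, which prefers IGF2 and was on the list of other pathway genes, was included with Igfbp2, Igfbp3, Igfbp4, Igfbp5 and Igfbp7 in a sum of CPM per kb, and each gene was expressed as its share of that sum. Igfbp4 held 32% ± 13.9 of the sum in terminal combination, 39.6% ± 4.13 in regressing and 38.1% ± 22.4 in vehicle tumours (SD, n = 4 each). It was the most abundant of the 6 in 8 of 12 tumours. Igfbp6 led in terminal combination replicate 1 (47.9%) and vehicle replicate 1 (45.5%), Igfbp7 in terminal combination replicate 4 (27.2%) and Igfbp3 in vehicle replicate 3 (33.7%). Igfbp4 led in all 4 regressing tumours. Vehicle replicate 2 had the most lopsided make-up, with 69.5% Igfbp4. Igfbp5 held 11.6% ± 9.35, 5.62% ± 4.16 and 9.16% ± 7.13 of the sum in terminal combination, regressing and vehicle tumours, and at most 23.8%, in terminal combination replicate 4.

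**Figure D4:**
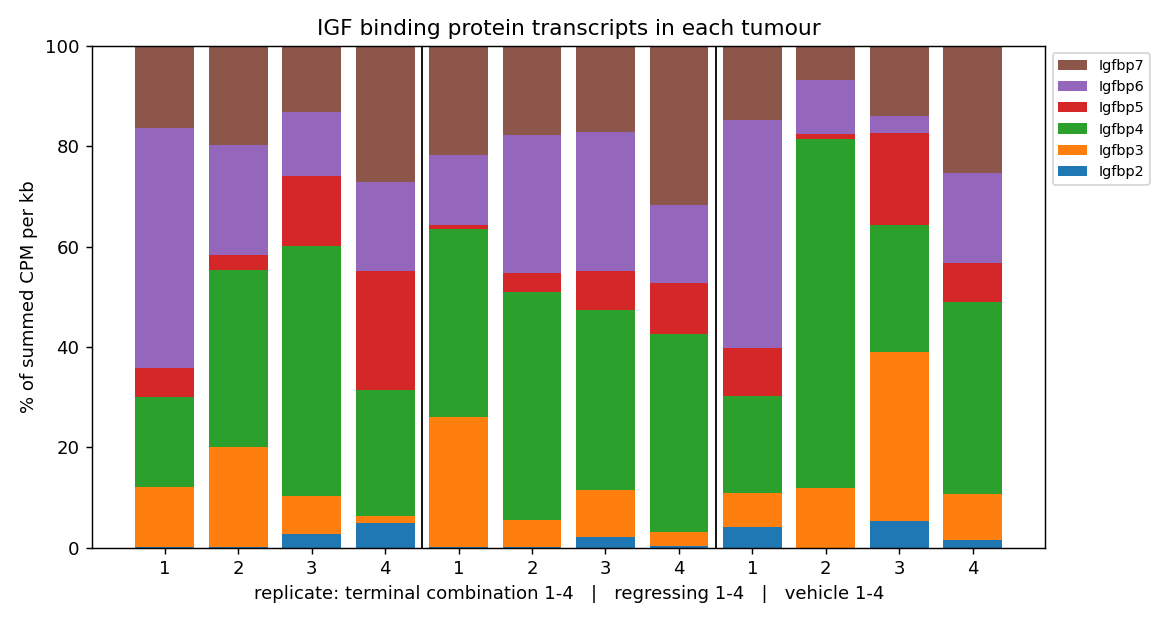
Stacked bars of the share (%) of each of 6 IGF binding protein genes in their summed CPM per kb, 1 bar per tumour. Igfbp4 is the largest part in 8 of 12 tumours, from 18% to 69.5%.

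Other genes of the IGF pathway were taken from a list of 29, of which 23 passed the filter on low counts. None passed an adjusted p of 0.05 in edgeR in any of the 3 comparisons. At an unadjusted p under 0.05, edgeR counted 1 of 23 for terminal combination minus regressing (lower, beside 7.02% of all genes in either direction) and 1 of 23 for terminal combination minus vehicle (higher, beside 5.94%). For regressing minus vehicle it counted 4 of 23, all lower, beside 12.7% of all genes in either direction and 6.03% that were lower. Their median log2 differences were 0.25, -0.19 and -0.01 in that order. DESeq2 called 1 of 23, Stc1, in regressing minus vehicle (adjusted p = 0.0183), beside 3.09% of all genes, and 0 of 23 in the other comparisons, beside 0.326% between the treated groups and 0.0895% for terminal combination minus vehicle.

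Stc1 and Stc2 encode stanniocalcins, secreted inhibitors of the pappalysins. Stc1 reached 13.9, 6.6, 12.8 and 14.4 CPM in terminal combination replicates 1 to 4, while regressing replicates 1 to 4 had 4.33, 8.82, 7.89 and 6.63 CPM and vehicle replicates 1 to 4 had 16.4, 12.8, 47.4 and 12.8 CPM. All regressing tumours were below all vehicle tumours. Stc1 was the 1 of 23 other pathway genes to lie wholly lower there, beside 4.14% of all genes. Regressing minus vehicle was -1.69 on the log2 scale (SE 0.45) with an edgeR adjusted p of 0.24, and -1.0 without vehicle replicate 3, the tumour with the most of both genes. Stc2 averaged 6.73 CPM in regressing tumours and 28.1 CPM in vehicle tumours, of which vehicle replicate 3 held 86.1 CPM and the others 7.82 to 9.64 CPM. Its log2 difference was -2.06 (SE 0.81, edgeR adjusted p = 0.327), and -0.36 without that tumour.

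The second IGF ligand was scarce. Igf2 reached 0.358, 1.01, 3.32 and 6.67 CPM in terminal combination replicates 1 to 4, while regressing replicates 1 to 4 had 1.72, 0.174, 2.13 and 0.693 CPM and vehicle replicates 1 to 4 had 25.2, 0.214, 3.2 and 7.69 CPM. Its log2 difference was -2.93 (SE 1.22) for regressing minus vehicle, with an edgeR adjusted p of 0.353, and -1.62 without vehicle replicate 1. The 6 tumours high in Igfbp2 were the 6 with the most Igf2, at 2.13 to 25.2 CPM, against 0.174 to 1.72 CPM in the others. Insr, the insulin receptor gene, which pairs with Igf1r in hybrid receptors, averaged 50.3 CPM in the terminal combination group, 35.6 CPM in the regressing group and 41.3 CPM in the vehicle group. Its log2 difference was 0.50 (SE 0.29, edgeR adjusted p = 0.743) for terminal combination minus regressing.

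Of proteins that act on the binding proteins, Htra1, a secreted protease, averaged 659 CPM in the terminal combination group, 859 CPM in the regressing group and 410 CPM in the vehicle group, with a log2 difference of 1.07 (SE 0.52, edgeR adjusted p = 0.415) for regressing minus vehicle. Lrp1, an endocytic receptor that takes up many secreted proteins, averaged 914, 722 and 543 CPM in the same order of groups, 0.75 (SE 0.26, edgeR adjusted p = 0.819) on the log2 scale for terminal combination minus vehicle. Tmem219, which encodes a receptor for IGFBP3, averaged 20.3 CPM in terminal combination and 32.4 CPM in regressing tumours, a log2 difference of -0.67 (SE 0.23, edgeR adjusted p = 0.692). Igf2bp2, which encodes an RNA-binding protein named for its binding of Igf2 mRNA, averaged 51 CPM in regressing tumours and 80 CPM in vehicle tumours (-0.65 on the log2 scale, SE 0.27, edgeR adjusted p = 0.351). Without vehicle replicate 3 that difference was -0.38, and with the adipocyte score as a covariate -0.03. Igfbp1, the liver binding protein, drew 1 count in 1 vehicle tumour and none in the other 11.

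**Figure D5:**
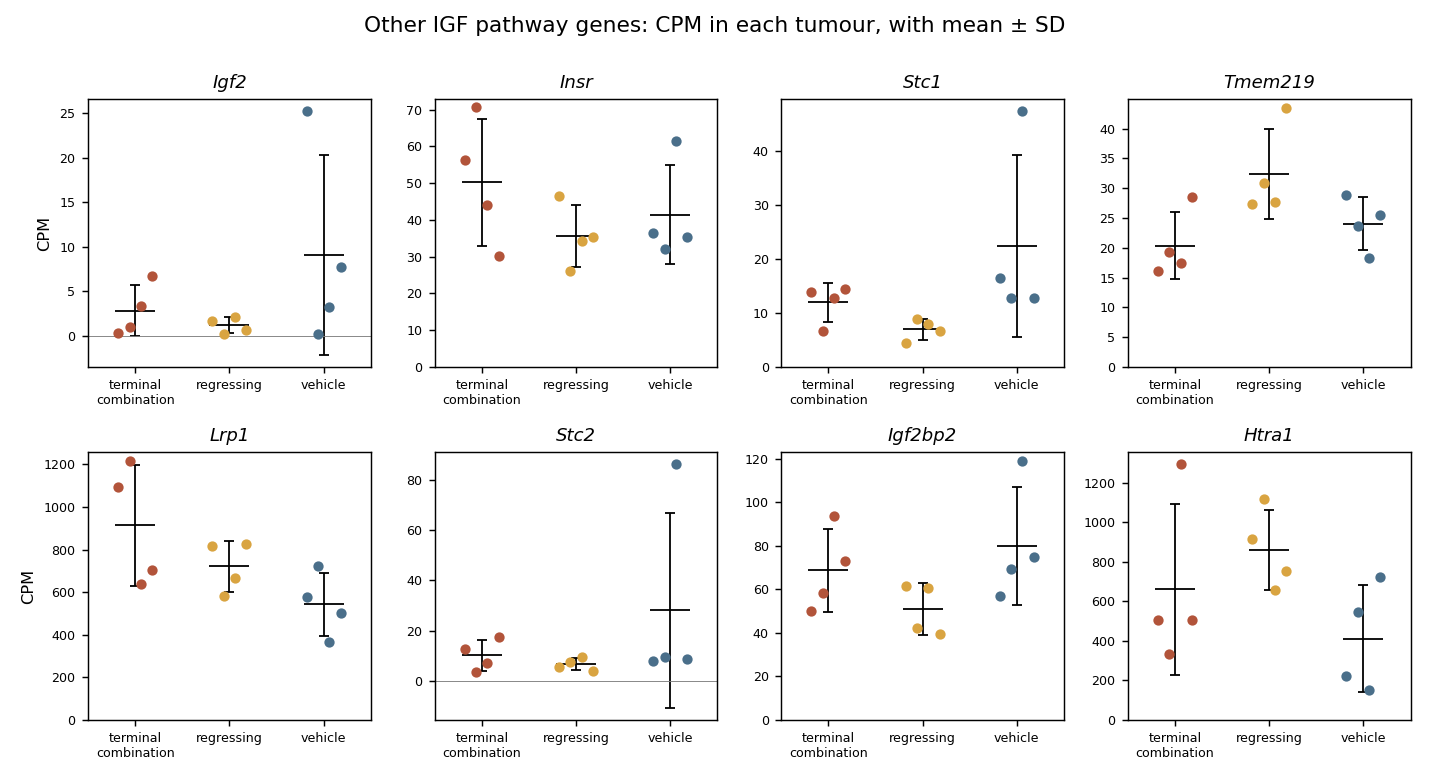
CPM (y axis, linear) of 8 other IGF pathway genes in every tumour, with points for tumours and bars for mean ± SD (n = 4 per group). Vehicle replicate 3 stands alone for Stc1 and Stc2, and vehicle replicate 1 for Igf2.

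FOXO factors, which AKT keeps out of the nucleus when IGF signalling is on, and genes they regulate formed a list of 12, all tested. None passed an adjusted p of 0.05 in edgeR, where 0% of all genes did. At an unadjusted p under 0.05 edgeR counted 0 of 12 for terminal combination minus regressing (7.02% of all genes), 2 of 12 for terminal combination minus vehicle (5.94%) and 4 of 12 for regressing minus vehicle (12.7%). Of the 4, 3 were higher and 1 was lower in regressing tumours. DESeq2 called 0, 0 and 2 of 12 in these comparisons, beside 0.326%, 0.0895% and 3.09% of all genes. Pik3ip1, which encodes an inhibitor of PI3K, reached 20.7, 19, 20.9 and 18.3 CPM in terminal combination replicates 1 to 4, while regressing replicates 1 to 4 had 43.1, 16.4, 20.2 and 25.7 CPM and vehicle replicates 1 to 4 had 9.44, 11.9, 13.4 and 15.7 CPM. Both treated groups were wholly above vehicle tumours, with regressing replicate 2 (16.4 CPM) close to vehicle replicate 4 (15.7 CPM). In each of these comparisons, groups did not overlap for 1 of 12 genes of the list. The shares of all genes, in either direction, were 2.5% for terminal combination minus vehicle and 7.64% for regressing minus vehicle. Between the treated groups, 1 of 12, Foxo3, lay wholly higher in terminal combination tumours, beside 2.4% of all genes. Foxo3 ran from 98 to 179 CPM there and from 85.3 to 93.8 CPM in regressing tumours. Its log2 difference was 0.46 (SE 0.24, edgeR adjusted p = 0.734). For Pik3ip1, regressing minus vehicle was 1.07 on the log2 scale (SE 0.28), with an adjusted p of 0.236 in edgeR and 0.0174 in DESeq2. The difference was 0.51 without the libraries whose titles end in FFT. Erbb3, a receptor gene of Schwann and muscle cells that FOXO factors can induce, averaged 1.89 CPM in regressing against 13.9 CPM in vehicle tumours (log2 difference -2.88, SE 0.92, adjusted p 0.271 in edgeR and 0.0296 in DESeq2). Without vehicle replicate 1 the Erbb3 difference was -1.71. Klf15, a FOXO-related gene of muscle and fat, averaged 4.48, 7.1 and 1.28 CPM in terminal combination, regressing and vehicle tumours. Regressing minus vehicle was 2.48 (SE 0.89, edgeR adjusted p = 0.289), and 0.76 without regressing replicates 1 and 4. Its 4 highest values were in regressing replicate 1 (13.8 CPM), terminal combination replicate 2 (11.4), regressing replicate 4 (10.2) and terminal combination replicate 4 (3.42), the 4 libraries with the highest mature muscle sums.

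For the other members, the tested protein-coding genes with the most similar log2 CPM over the 12 tumours were as follows, as a description. Igf1 was followed by Itga1, Gem and Tnn, each with r = 0.91. Tnn, which encodes tenascin-W, stood at 416 CPM in vehicle replicate 2 and at 0.342 to 24.7 CPM elsewhere. Igf1r was followed by Shc4 (r = 0.92), which encodes a SHC family adaptor of receptor tyrosine kinases, then by Trim3 and Tead1 (r = 0.90 each). Igf2r was followed by 2410004B18Rik (r = 0.95), the stress factor gene Atf4 (r = 0.93) and Zfp618 (r = 0.92). Irs1 was closest to Zfp410 (r = 0.89), Irs2 to Sem1 (r = 0.94), Igfbp3 to Ptges2 (r = 0.86), Igfbp4 to Stub1 (r = 0.94), Igfbp5 to Prss35 (r = 0.88) and Igfbp7 to Acer2 (r = 0.90).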

How the data were processed

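Per the labels' protocols, the RNA came from an RNeasy extraction and went into TruSeq stranded mRNA libraries. The authors deposited raw gene counts for each tumour. The submitters' processing notes name HISAT2 2.2.1, Salmon and DESeq2 1.24.0 with mm10 and GRCm38.p6, without roles. The counter, its strand setting and the annotation release are not given in the sources used here, so overlapping genes may share reads. Symbols, positions and exon lengths came from GENCODE M21 (GRCm38), which holds 54495 of the 54532 identifiers, and promoter sequences from RefSeq (GRCm38.p6), matched by symbol for all 10 members.

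Low counts were removed with filterByExpr (at least 10 counts, 15 in total), and the rest were scaled by TMM and fitted with edgeR's quasi-likelihood model over all 12 libraries. P-values were adjusted by Benjamini-Hochberg over 15650 genes, with a threshold of 0.05. A standard error is the log2 difference over the root of its F statistic. Marker scores are mean log2 CPM (prior count 2). The steps were also run on simulated counts, drawn for each gene on its own. Those counts lacked variation shared between genes, such as muscle content. They therefore do not show how the steps perform on these tumours. Libraries were numbered in accession order within a group, and no pair looked like a duplicate (lowest chi-square per degree of freedom 52.6). Versions were R 4.3.3, edgeR 4.0.16, DESeq2 1.42.0, Python 3.11.15, pandas 2.3.3, numpy 2.4.6 and matplotlib 3.10.9.

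The members and the gene lists were chosen with earlier results of these data known. By rule the genes named are the 10 members, Igf2, Insr and the 6 other pathway genes with the smallest p, the 3 FOXO genes with the smallest p, and the 3 genes most like each member by Pearson r, of which the first is given for some. Outside that rule, Pappa, Pappa2, Igfbp1, Igfbp6, Foxo3, Acta2, Tagln and Rgs5 were chosen after their values were seen. So were the defining Schwann markers Sox10 and Foxd3, and the muscle-formation genes. Overlapping genes such as Airn and Polr2b were chosen for their position. The alternatives were RLE scaling, DESeq2, no filter on low counts, each library left out, only the groups compared, FFT (an unexplained ending of 4 titles, in 1 terminal combination, 1 regressing and 2 vehicle libraries) left out or as a covariate, the regressing replicates with the most muscle RNA left out, and muscle or adipocyte scores as covariates.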

Additional observations from a re-analysis of the deposited data

Results flagged for a closer look

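In groups of 4 tumours, a value was looked at again where its gap to the nearest other, as a share of the group's range, exceeded the critical value of Dixon's test for 4 values. Of 54 gene and group pairs (the 10 members and 8 other pathway genes), 8 met this, each at the highest value of its group. The test's chance rate of about 1 in 20 assumes normally distributed values, which CPM on a linear scale need not be. No excess over chance is therefore read from the 8. Vehicle replicate 2 stood apart for Igf1 at 305 CPM, where the other vehicle tumours held 37.3 to 49.9 CPM, and for Igfbp4 at 5037 CPM, where they held 481 to 1240 CPM. Vehicle replicate 3 stood apart for Insr at 61.4 CPM (others 32.1 to 36.5), Stc1 at 47.4 CPM (others 12.8 to 16.4) and Stc2 at 86.1 CPM (others 7.82 to 9.64). Terminal combination replicate 2 stood apart for Igf1r at 93.1 CPM (others 60.7 to 64.8). Among regressing tumours, replicate 1 stood apart for Irs1 at 49.7 CPM (others 28.5 to 30.3) and replicate 3 for Igfbp2 at 32.1 CPM (others 1.22 to 2.85).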

How the results depend on the processing

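Of 30 member differences, 14 kept their sign under all 21 alternatives. Of 630 values, 560 had the sign of the value reported, 70 did not, and 16 moved by more than 1 SD of the replicates. The differences of Igf1r in the 3 comparisons were among those that kept their sign. Those of Igf1 and Igfbp4 against vehicle took the other sign without vehicle replicate 2.

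The number of genes called by edgeR was 0 in each comparison under the RLE, filter, group, FFT and covariate alternatives. DESeq2 called 51 genes for terminal combination minus regressing, 14 for terminal combination minus vehicle and 483 for regressing minus vehicle, with 1 other IGF pathway gene, Stc1, in the last. When single libraries were left out, edgeR called 0 to 1 genes for terminal combination minus regressing, the 1 without terminal combination replicate 4, and 0 in the other comparisons. At an unadjusted p under 0.05, edgeR counted 1099, 930 and 1995 genes. No paired analysis was possible because the numbers in the titles are not explained and no pair of groups shares more than 1 of them. With 4 tumours a group, differences within this spread were not detectable, which does not show that they are absent.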
